A study of Mus musculus with 3 samples.

Results

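The genes of the actin, myosin, tubulin and keratin filaments were followed in liver RNA of apolipoprotein E-deficient male mice fed 1 of 3 diets. Members were chosen by gene symbol alone: conventional actins, actin-related proteins and Arp2/3 subunits, alpha-actinins, tropomyosins, myosin heavy and light chains, tubulins with the gamma-tubulin complex, numbered keratins, vimentin and desmin. The rule matched 132 of the 12488 probe sets on the array. Of these, 6 were array-check probe sets for beta-actin, and the other 126 stood for 90 of the 8251 genes with a single symbol.

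The tested diets held conjugated linoleic acid (CLA), either the t10,c12 isomer or the c9,t11 isomer, and the control diet held linoleic acid in its place, each at 1.0% by weight with fat giving 30% of the energy. All mice were homozygous knockouts for apoE on a C57BL/6JxOLA129 background, were 3 months old when assigned (9 to t10,c12-CLA, 10 to c9,t11-CLA and 10 to control) and ate their diet for 12 weeks. The sample labels call the diet a western diet, and the design text a semi-purified one. One Affymetrix array per diet was deposited, and the labels do not say whether its RNA came from 1 mouse or a pool. No array therefore had a replicate, no difference could be tested, and no p-value is given.

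Actin and tubulin polymerise into filaments that shape the cell and carry its cargo, and non-muscle myosin II pulls on actin filaments. In hepatocytes a belt of actin and myosin surrounds the bile canaliculus, microtubules carry secretory vesicles, and keratins 8 and 18 pair to form the intermediate filaments. Vimentin and desmin are intermediate filament proteins of mesenchymal and muscle cells, and in liver desmin marks stellate cells.

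Values are MAS5 signals, hybridisation intensities on a linear scale. A gene was represented by its brightest probe set and was called measured in a comparison when that probe set lay above a floor of 490.3, the median of all signals, on both arrays. A log2 difference of 1, a 2-fold ratio, was the size counted. Signals of different probe sets are not comparable with each other, so only the same probe set is compared across arrays. Where signals of a marker list are summed, the same probe sets are summed on each array, and the sum follows mostly the brightest of them. The precision is limited by the number of arrays. As a technical yardstick, the SD of a single log2 difference, taken from pairs of probe sets of the same gene, was 0.40 for t10,c12-CLA over control, 0.49 for c9,t11-CLA over control and 0.49 for t10,c12-CLA over c9,t11-CLA. That yardstick holds probe and measurement error but no variation between mice.

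The arrays shared a 2%-trimmed mean of 1501. Liver identity was clear, with 9 of 9 hepatocyte markers on the array above the floor on each array. Their summed signal was 206360 on t10,c12-CLA, 383495 on c9,t11-CLA and 227984 on control, and 7 of the 9 were above control on c9,t11-CLA. The markers did not all move together. Alb gave 31244 on t10,c12-CLA, 101163 on c9,t11-CLA and 28437 on control, while Ttr gave 21645 on t10,c12-CLA, 9384 on c9,t11-CLA and 17983 on control. Endothelial markers summed to 17682 on t10,c12-CLA, 13105 on c9,t11-CLA and 13406 on control, and erythroid markers to between 38168 and 38761. Neutrophil markers summed to 5892 on t10,c12-CLA, 7561 on c9,t11-CLA and 5053 on control, and dividing-cell markers to 6366 on t10,c12-CLA, 6731 on c9,t11-CLA and 3510 on control. Lymphocyte markers summed to 3617 on t10,c12-CLA, 4777 on c9,t11-CLA and 4491 on control, and mesothelial markers to 1007 on t10,c12-CLA, 1990 on c9,t11-CLA and 827 on control. In bulk tissue, fewer cells of a type and less RNA per cell cannot be told apart.

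Of the 90 genes, 39 lay above the floor on all 3 arrays, 16 on 1 or 2 arrays and 35 on none. The genes of striated and smooth muscle were mostly dim. Of 11 myosin heavy chain genes 7 were above the floor nowhere, among them the skeletal Myh1, Myh2 and Myh8, the cardiac Myh6 and the smooth muscle Myh11. Of 10 myosin light chain genes 7 were above the floor nowhere, and so was skeletal alpha-actin, Acta1. The dim heavy chain genes also included the non-muscle Myh10, and the dim light chain genes included Myl6. Being under the floor thus did not mark a muscle gene. Of 30 keratin genes 14 were below the floor throughout, including Krt7 and Krt19, which mark bile duct cells in liver. By contrast, 4 of 6 actins, 6 of 8 Arp2/3 and actin-related genes and 10 of 15 tubulin genes were above the floor on every array.

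**Figure D1:**
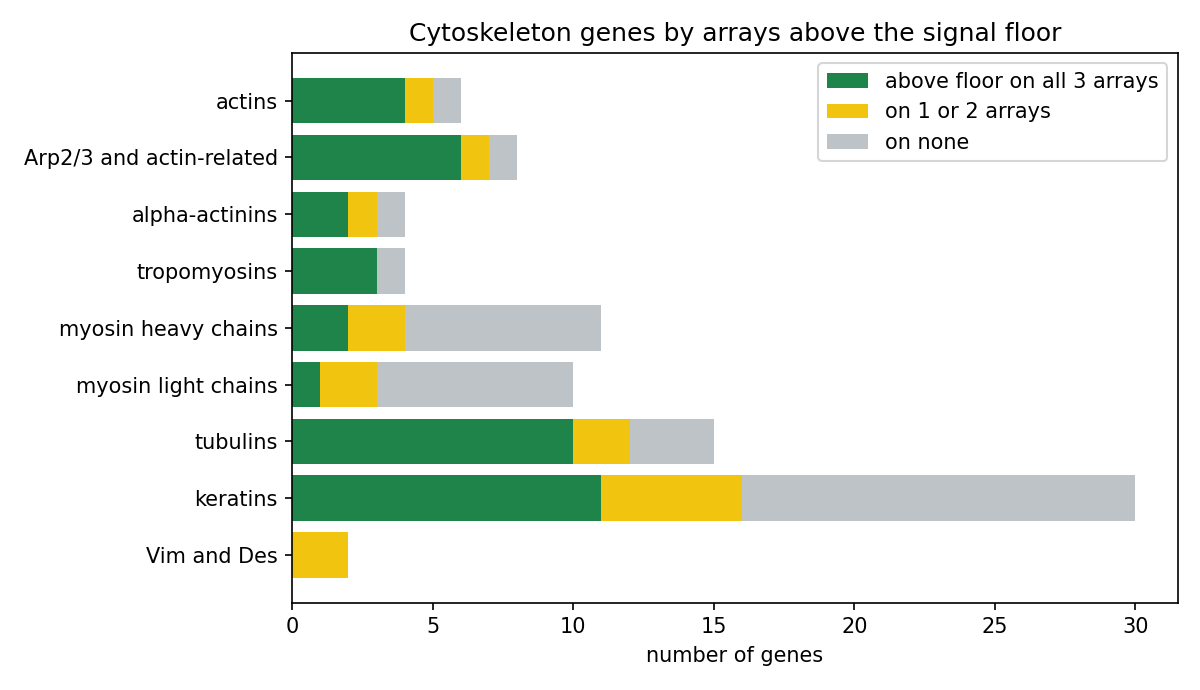
Number of genes in each filament group (horizontal axis) whose brightest probe set lay above the signal floor of 490.3 on all 3 arrays, on 1 or 2, or on none. Keratins and myosins hold most of the 35 genes that were above the floor on none.

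On the t10,c12-CLA diet the non-muscle myosin heavy chain Myh9 and the beta-tubulin Tubb2a were more than 2-fold higher than on the control diet. These were 2 of 41 measured members, and 2.05% of all 4391 measured genes were 2-fold higher. No member was 2-fold lower, against 1.87% of all measured genes, so 2 of 41 passed in either direction against 3.92%. On the c9,t11-CLA diet Myh9 and the hair keratin Krt84 were 2-fold higher, 2 of 43 measured members against 2.98% of 4324 genes, and the Arp2/3 subunit Arpc4 was 2-fold lower, 1 of 43 against 2.78%. Either direction together gave 3 of 43 against 5.76%. With the arrays set to equal medians the c9,t11-CLA split was 2 higher and 3 lower of 44 measured members. After quantile normalization it was 2 higher and 2 lower of 44. Between the isomers, Tubb2a, the beta-tubulin Tubb3 and the tropomyosin Tpm4 were 2-fold higher on t10,c12-CLA than on c9,t11-CLA, 3 of 45 measured members against 3.47% of 4382 genes. None was 2-fold lower in that comparison, against 2.56%, which made 3 of 45 against 6.02% in either direction. These are small counts, and nothing particular to the cytoskeleton is read from them.

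Genes above the floor on only 1 of the arrays compared were counted apart, by their bound against the floor. For t10,c12-CLA over control, 7 members were above the floor on t10,c12-CLA alone and 5 on control alone. None of them had a bound of 2-fold or more, against 4.59% of 719 such genes higher and 2.64% lower, 7.23% together. For c9,t11-CLA over control, 8 members were above the floor on c9,t11-CLA alone and 3 on control alone. Of these the hair follicle keratin Krt72 was higher, against 6.47% of 989 genes, and the hair keratin Krt81 was lower, against 4.04%, with 10.5% in either direction. For t10,c12-CLA over c9,t11-CLA, 3 members were above the floor on t10,c12-CLA alone and 6 on c9,t11-CLA alone. Of these Krt81 was higher and the epidermal keratin Krt17 lower, against 5.77% of 970 genes higher and 5.77% lower, 11.5% together. These too are small counts.

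The members as a whole stood near 0. Their median log2 difference was 0.02 for t10,c12-CLA over control, against -0.01 for all measured genes, and -0.07 for c9,t11-CLA over control, against 0.02. For t10,c12-CLA over c9,t11-CLA the median was 0.10, against -0.05 for all measured genes. The comparisons with control share the control array, so they are not independent of each other.

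**Figure D2:**
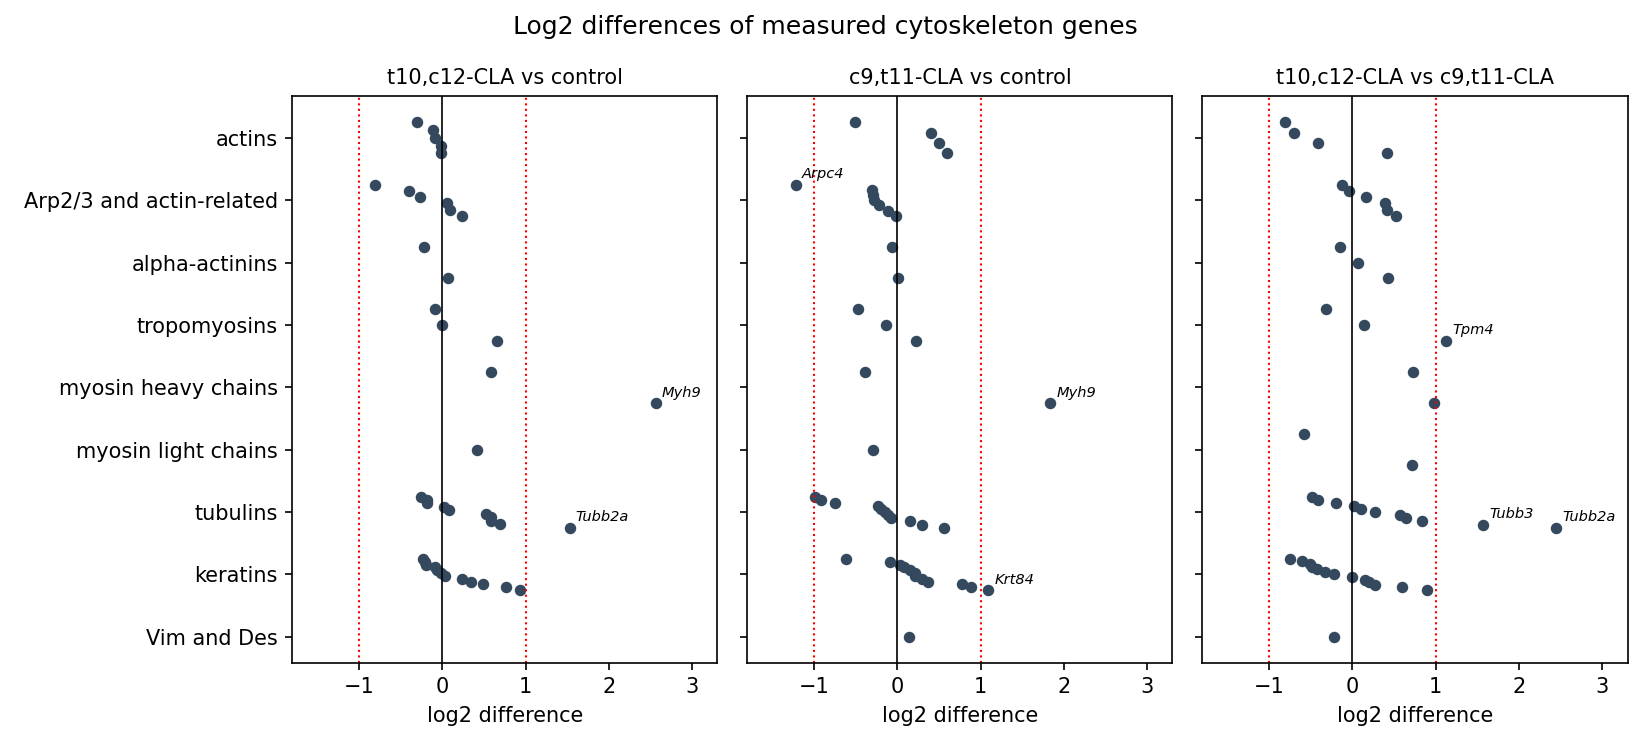
Log2 difference (horizontal axis) of each measured member gene, 1 point per gene, by filament group for t10,c12-CLA over control (left), c9,t11-CLA over control (middle) and t10,c12-CLA over c9,t11-CLA (right). Dotted lines mark 2-fold, and the genes past it are named. Myh9 stands apart at 2.56 and 1.83 in the comparisons with control, and Tubb2a at 2.44 between the isomers.

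The upstream sequences of 5 genes past 2-fold, and of the cytoplasmic actin gene Actg1 as a bright gene that was not, are printed to show the regulatory DNA of the genes the comparisons turn on. They are the 250 bases before the transcription start in RefSeq on GRCm38.p6, 5′ to 3′ on the gene's strand. Capitals mark every match, on either strand, to the CArG box (the element bound by serum response factor, a regulator of actin genes), to TATAAA and to CCAAT. No matches overlapped in these 6 windows.
Myh9, chr15:77842176-77842425, minus strand: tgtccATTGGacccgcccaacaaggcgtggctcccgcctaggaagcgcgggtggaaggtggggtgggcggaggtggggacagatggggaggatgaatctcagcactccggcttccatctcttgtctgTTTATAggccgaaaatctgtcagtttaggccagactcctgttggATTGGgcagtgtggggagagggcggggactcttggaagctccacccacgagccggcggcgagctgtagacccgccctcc
Tubb2a, chr13:34078009-34078258, minus strand: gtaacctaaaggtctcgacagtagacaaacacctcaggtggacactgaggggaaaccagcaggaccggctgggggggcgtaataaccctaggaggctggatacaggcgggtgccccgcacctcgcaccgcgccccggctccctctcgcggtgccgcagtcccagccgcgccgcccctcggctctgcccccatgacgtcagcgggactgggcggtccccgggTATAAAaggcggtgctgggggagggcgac
Tubb3, chr8:123411303-123411552, plus strand: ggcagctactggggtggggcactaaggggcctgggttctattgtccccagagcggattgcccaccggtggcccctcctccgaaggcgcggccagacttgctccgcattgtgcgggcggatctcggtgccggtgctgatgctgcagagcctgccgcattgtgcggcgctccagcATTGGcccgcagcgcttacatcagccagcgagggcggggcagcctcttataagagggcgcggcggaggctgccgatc
Tpm4, chr8:72135038-72135287, plus strand: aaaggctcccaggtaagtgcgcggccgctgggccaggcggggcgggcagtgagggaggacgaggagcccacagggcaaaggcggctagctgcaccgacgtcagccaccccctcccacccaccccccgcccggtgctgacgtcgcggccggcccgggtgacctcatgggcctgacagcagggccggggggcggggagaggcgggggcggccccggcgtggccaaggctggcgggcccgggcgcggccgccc
Arpc4, chr6:113377863-113378112, plus strand: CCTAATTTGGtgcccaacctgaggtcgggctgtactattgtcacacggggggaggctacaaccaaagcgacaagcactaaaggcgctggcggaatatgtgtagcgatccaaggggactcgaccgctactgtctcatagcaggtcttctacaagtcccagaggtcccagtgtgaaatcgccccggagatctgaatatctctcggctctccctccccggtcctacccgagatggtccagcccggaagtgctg
Actg1, chr11:120348496-120348745, minus strand: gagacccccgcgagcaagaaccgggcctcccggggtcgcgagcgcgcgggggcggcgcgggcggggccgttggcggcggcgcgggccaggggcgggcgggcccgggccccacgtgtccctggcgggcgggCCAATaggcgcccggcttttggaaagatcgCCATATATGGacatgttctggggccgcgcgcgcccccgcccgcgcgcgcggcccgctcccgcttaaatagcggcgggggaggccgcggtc

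Upstream windows were found for 72 of the 90 member genes, 80 windows in all because some genes have several starts. A CArG box lay in 10 of the 80 member windows, 12.5%, and in 1.47% of all 32851 windows of this length. The members with one were the actins Acta1, Actc1 and Actg1, the myosin genes Myh4, Myl3, Myl6, Myl7 and Myl9, the keratin Krt12 and Arpc4. Several of these, such as Acta1 and Myh4, encode striated muscle proteins. Actg1 carried its CArG box starting 90 bases before the start, and Arpc4 at the first base of its window, 250 bases before. TATAAA was in 26.2% of member windows and 12.4% of all, and in Tubb2a it began 29 bases before the start. CCAAT was in 42.5% of member windows and 33.8% of all. Of the printed genes, Tpm4 held none of the motifs, which says only that these letters are not in this window.

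Myh9, which encodes the heavy chain of non-muscle myosin IIA, gave a signal of 9742 on t10,c12-CLA and 5888 on c9,t11-CLA, against 1651 on control. It was 5.90-fold higher on t10,c12-CLA and 3.57-fold higher on c9,t11-CLA than on control. A second, dimmer Myh9 probe set gave 2299 on t10,c12-CLA and 3461 on c9,t11-CLA, against 968 on control. Both probe sets thus placed both CLA arrays above the control array, with log2 differences of 2.56 and 1.25 for t10,c12-CLA and of 1.83 and 1.84 for c9,t11-CLA. They disagreed on the order of the isomers, with log2 differences of 0.73 and -0.59 for t10,c12-CLA over c9,t11-CLA.

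Of the other non-muscle heavy chains only Myh14 was measured. Myh14, the heavy chain of non-muscle myosin IIC, gave 3261 on t10,c12-CLA, 1659 on c9,t11-CLA and 2177 on control. Its log2 difference between the isomers was 0.98, just under 2-fold, and it stood at 0.58 for t10,c12-CLA and -0.39 for c9,t11-CLA over control. Myh14 was thus not above control on both CLA arrays. Myh10, of non-muscle myosin IIB, stayed under the floor on all arrays, so its order is unknown. The regulatory light chain Myl12b, which binds the non-muscle heavy chains, gave 20563 on t10,c12-CLA, 12530 on c9,t11-CLA and 15354 on control, with a log2 difference of 0.71 between the isomers. It was the single light chain gene above the floor on all 3 arrays. The atrial light chains were dim: Myl4 gave 627 on t10,c12-CLA, 937 on c9,t11-CLA and 444 on control, and Myl7 gave 66 on t10,c12-CLA, 669 on c9,t11-CLA and 58 on control, which made Myl7 at least 1.36-fold higher on c9,t11-CLA than on control. Striated muscle markers, a list that holds several members, had summed signals over 21 genes of 5017 on t10,c12-CLA, 7911 on c9,t11-CLA and 5360 on control, and their part was not tested.

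**Figure D3:**
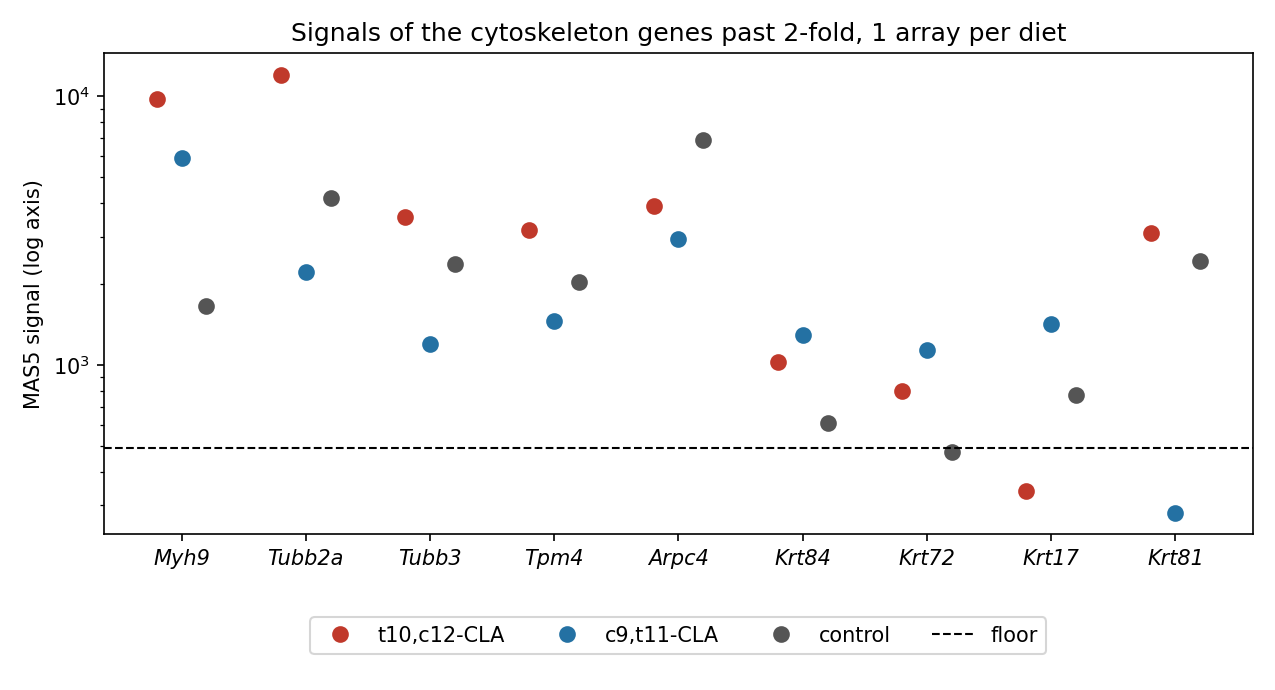
MAS5 signal on a log axis, 1 point per array, for the 9 member genes at least 2-fold different in a comparison, including those with a signal under the floor (dashed line, 490.3) on 1 of the arrays. Myh9 was higher on both CLA arrays than on control, and Arpc4 lower on both.

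Beta-tubulins, which pair with alpha-tubulins in the subunits of microtubules, were higher on t10,c12-CLA than on control in 5 of 5 measured genes, while 49.1% of all measured genes were above 0 in that comparison. Their median log2 difference was 0.58, with a range of 0.52 to 1.53. On c9,t11-CLA 4 of 5 were lower than on control, with a median of -0.14, and 52.2% of all genes were above 0. Between the isomers 5 of 5 were higher on t10,c12-CLA, with a median of 0.84, and 45.7% of all genes were above 0. These directions held with arrays at equal medians and after quantile normalization. Equal medians shifts every gene of a comparison by the same amount, downward for c9,t11-CLA over control and upward between the isomers. It therefore could not have reversed the 4 lower genes or the 5 higher ones in those comparisons. The other beta-tubulin gene, Tubb4b, was under the floor throughout, with 295 on t10,c12-CLA, 268 on c9,t11-CLA and 323 on control. With the floor at the 25th percentile, 5 of 6 were above control on t10,c12-CLA and 5 of 6 below it on c9,t11-CLA. Macrophage and Kupffer cell markers had the same order in their summed signals over 12 genes, with 108699 on t10,c12-CLA, 68608 on c9,t11-CLA and 82082 on control. On each array 11 of them were above the floor. Of 11 measured, 10 were above control on t10,c12-CLA and 5 on c9,t11-CLA, so not every gene had that order. Summed stellate cell and fibroblast signals also had it, with 61228 on t10,c12-CLA, 42554 on c9,t11-CLA and 50873 on control. Of 9 measured, 6 were above control on t10,c12-CLA and 3 on c9,t11-CLA. The ratio of 3′ to 5′ signal of the Actb array-check probe sets was 1.35 on t10,c12-CLA, 1.89 on c9,t11-CLA and 1.40 on control. The part of these in the beta-tubulin differences was not tested.

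Tubb2a gave 12027 on t10,c12-CLA and 2219 on c9,t11-CLA, against 4176 on control. It was 2.88-fold higher on t10,c12-CLA than on control and 5.42-fold higher than on c9,t11-CLA, and c9,t11-CLA was 1.88-fold below control. A second Tubb2a probe set gave 720 on t10,c12-CLA, 836 on c9,t11-CLA and 398 on control, which leaves both CLA arrays above control but puts the isomers in the other order, at -0.21. Tubb3, known as the neuronal beta-tubulin, gave 3553 on t10,c12-CLA, 1200 on c9,t11-CLA and 2376 on control, a 2.96-fold difference between the isomers. The other Tubb3 probe set lay under the floor on every array.

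Tubb5, the widely expressed beta-tubulin, gave 5214 on t10,c12-CLA, 3350 on c9,t11-CLA and 3626 on control, with a log2 difference of 0.64 between the isomers. Its second probe set pointed the same way, with 3460 on t10,c12-CLA, 958 on c9,t11-CLA and 2790 on control, a log2 difference of 1.85. Tubb6 gave 1724 on t10,c12-CLA, 963 on c9,t11-CLA and 1064 on control. Tubb4a was the exception on c9,t11-CLA, with 1439 on t10,c12-CLA and 1188 on c9,t11-CLA, against 964 on control. The probe sets standing for Tubb2a, Tubb3, Tubb5 and Tubb6 carry the identifier suffix that Affymetrix gave to sets whose probes are shared within a gene family, so these 4 signals may overlap. Without suffixed probe sets Tubb4a was the only measured beta-tubulin, at 0.58 for t10,c12-CLA and 0.30 for c9,t11-CLA over control.

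**Figure D4:**
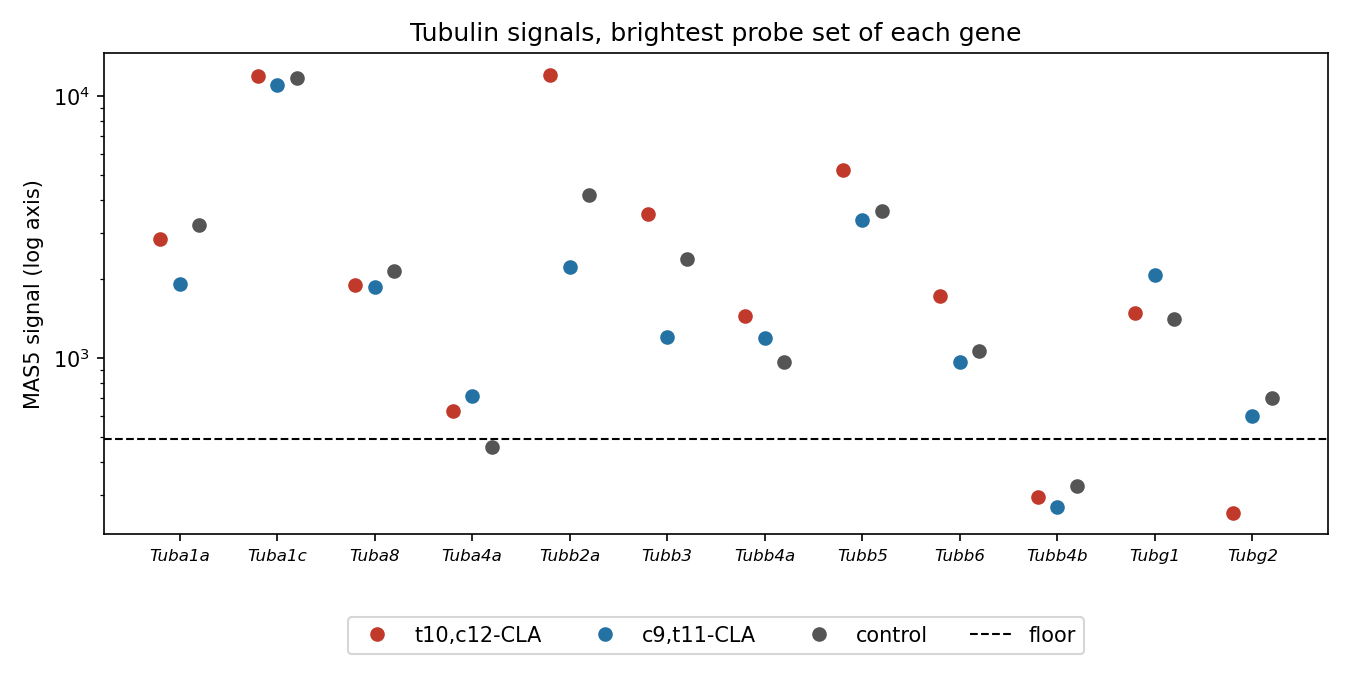
MAS5 signal on a log axis for the brightest probe set of each alpha-, beta- and gamma-tubulin gene, 1 point per array, with the floor of 490.3 dashed. The alpha-tubulin Tuba1c lay between 11043 and 11863 on the 3 arrays, while the beta-tubulins Tubb2a, Tubb3, Tubb5 and Tubb6 were highest on t10,c12-CLA and lowest on c9,t11-CLA. Each of these probe sets carries the suffix for probes shared within a gene family.

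No measured alpha-tubulin gene passed 2-fold in a comparison. The median log2 difference of the alpha-tubulins was -0.18 over 3 genes for t10,c12-CLA and -0.20 over 3 genes for c9,t11-CLA over control, and 0.06 over 4 genes between the isomers. Tuba1c gave 11863 on t10,c12-CLA, 11043 on c9,t11-CLA and 11680 on control, log2 differences of 0.02 and -0.08 from control. Tuba1a gave 2832 on t10,c12-CLA, 1914 on c9,t11-CLA and 3211 on control by one probe set, and 1872 on t10,c12-CLA, 2299 on c9,t11-CLA and 2145 on control by the other, so its order between the isomers depended on the probe set. Tuba4a gave 626 on t10,c12-CLA, 717 on c9,t11-CLA and 456 on control, the last under the floor. Tuba8 had log2 differences of -0.18 for t10,c12-CLA and -0.20 for c9,t11-CLA over control. The probe sets standing for Tuba1c and Tuba1a carry the family suffix too. Without suffixed probe sets Tuba8 was the only alpha-tubulin measured against control. Gamma-tubulin, which nucleates microtubules, was measured through Tubg1, with 1485 on t10,c12-CLA, 2077 on c9,t11-CLA and 1407 on control, a log2 difference of -0.48 between the isomers. Its paralogue Tubg2 gave 256 on t10,c12-CLA, below the floor, 598 on c9,t11-CLA and 705 on control. In the gamma-tubulin complex, Tubgcp4 gave 638 on t10,c12-CLA, 849 on c9,t11-CLA and 765 on control, and Tubgcp3 was under the floor throughout.

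The Arp2/3 complex starts branches on actin filaments. Arpc4, one of its subunits, gave 3919 on t10,c12-CLA and 2950 on c9,t11-CLA, against 6860 on control, 1.75-fold lower on t10,c12-CLA and 2.33-fold lower on c9,t11-CLA. It has 1 probe set, so no second one could be compared. On c9,t11-CLA all 7 measured genes of the Arp2/3 and actin-related group were below control, with a median log2 difference of -0.28, while 52.2% of all measured genes were above 0. This count was 7 of 7 also after quantile normalization, although Actr6 was only at -0.01 before it. With arrays at equal medians it was 7 of 7 too. That setting lowers every gene of this comparison by the same amount, so it could not have raised any of them above control. With the floor at the 25th percentile it was 7 of 8, with Actr1a above control at 0.75. A probe set shared by the subunit Arpc1b and another gene, left out of the count, was above control there, with 1793 on c9,t11-CLA and 1470 on control. On that array the median log2 difference from control was 0.66 for hepatocyte markers, -0.40 for stellate cell and fibroblast markers and -0.15 for macrophage markers. The ratio of 3′ to 5′ signal of Actb, a sign of RNA integrity, was 1.89 on c9,t11-CLA and 1.40 on control. The part of these in the Arp2/3 differences was not tested. On t10,c12-CLA the group split evenly, 3 higher and 3 lower. Actr3, which with Actr2 forms the actin-like core of the complex, gave 6956 on t10,c12-CLA, 4822 on c9,t11-CLA and 5889 on control. The subunit Arpc2 gave 10071 on t10,c12-CLA, 7670 on c9,t11-CLA and 9442 on control.

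Tropomyosins bind along actin filaments and govern which proteins reach them. Tpm4 gave 3189 on t10,c12-CLA, 1461 on c9,t11-CLA and 2031 on control, and its 2.18-fold difference between the isomers came from a value above control on t10,c12-CLA and one below it on c9,t11-CLA. Tpm1 gave 1422 on t10,c12-CLA, 1293 on c9,t11-CLA and 1426 on control, and Tpm3 gave 3080 on t10,c12-CLA, 3837 on c9,t11-CLA and 3278 on control. By these probe sets neither differed by more than 0.32 on the log2 scale in any comparison. A second Tpm3 probe set was above the floor on c9,t11-CLA alone, with 70.7 on t10,c12-CLA, 520 on c9,t11-CLA and 232 on control. Tpm2 was under the floor on every array. The actin crosslinker Actn4 gave 2630 on t10,c12-CLA, 2515 on c9,t11-CLA and 2499 on control, log2 differences of 0.07 and 0.01 from control. Actn1 gave 2285 on t10,c12-CLA, 2535 on c9,t11-CLA and 2658 on control. It had log2 differences of -0.22 for t10,c12-CLA and -0.07 for c9,t11-CLA over control by its brightest probe set, while another probe set was above the floor on t10,c12-CLA alone, at 624.

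The cytoplasmic actins Actb and Actg1 make up the actin of non-muscle cells. Actg1 gave 13780 on t10,c12-CLA and 10342 on c9,t11-CLA, against 14647 on control, with log2 differences of -0.09 and -0.50 from control. Actb gave 9282 on t10,c12-CLA, 12379 on c9,t11-CLA and 9351 on control by its brighter gene probe set, but 10315 on t10,c12-CLA, 7039 on c9,t11-CLA and 9381 on control by the other. The c9,t11-CLA array was therefore above control by 0.40 with one probe set and below it by a log2 difference of -0.41 with the other. The array-check probe sets of Actb differed by position along the transcript. The set at the 3′ end gave 39307 on t10,c12-CLA, 56094 on c9,t11-CLA and 38882 on control, the middle set 46657 on t10,c12-CLA, 35638 on c9,t11-CLA and 38488 on control, and the set at the 5′ end 29185 on t10,c12-CLA, 29679 on c9,t11-CLA and 27799 on control. Their ratio of 3′ to 5′ signal, a sign of RNA integrity, was 1.35 on t10,c12-CLA, 1.89 on c9,t11-CLA and 1.40 on control. The part of this ratio in the Actb differences was not tested.

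**Figure D5:**
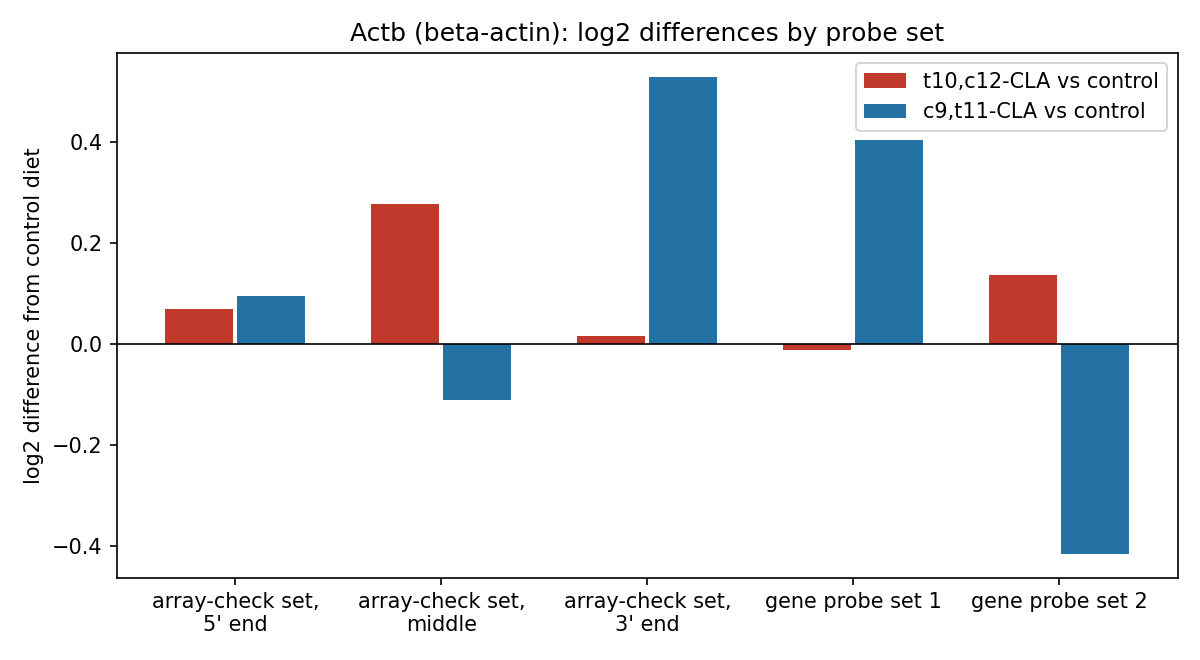
Log2 difference from the control array for 5 Actb probe sets, with t10,c12-CLA and c9,t11-CLA bars side by side. On c9,t11-CLA the values ran from -0.41 to 0.53 within the same gene, while on t10,c12-CLA they ran from -0.01 to 0.28.

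The smooth muscle actin Acta2, which activated stellate cells also make, gave 508 on t10,c12-CLA, 82.0 on c9,t11-CLA and 512 on control. The bright arrays barely passed the floor of 490.3, so the bound was at least 1.04-fold lower on c9,t11-CLA. In the list of smooth muscle and myofibroblast markers, 4 of the 8 genes on the array were above the floor on t10,c12-CLA, 3 on c9,t11-CLA and 4 on control, with summed signals of 7883 on t10,c12-CLA, 7154 on c9,t11-CLA and 8919 on control. Myh11, Cnn1, Myl9 and Smtn were under the floor on every array. Tagln, a smooth muscle actin-binding protein of that list, gave 1089 on t10,c12-CLA, 527 on c9,t11-CLA and 1066 on control. Actc1 and Actg2, cardiac and enteric muscle actins, were read by probe sets shared within the actin family and stood at -0.11 and -0.31 for t10,c12-CLA and at 0.59 and 0.50 for c9,t11-CLA over control.

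Keratins 8 and 18, the pair that hepatocytes make, were bright on every array. Krt8 gave 16282 on t10,c12-CLA, 8719 on c9,t11-CLA and 8512 on control. It was 1.91-fold higher on t10,c12-CLA than on control, a log2 difference of 0.94, and 0.03 on c9,t11-CLA. Its partner Krt18 gave 8843 on t10,c12-CLA, 7981 on c9,t11-CLA and 7537 on control, log2 differences of 0.23 and 0.08. Thus t10,c12-CLA was highest for both partners, by less than 2-fold. Bile duct markers were mostly under the floor. Of 6 on the array 1 was above the floor on t10,c12-CLA and 0 on the other arrays, with summed signals of 1116 on t10,c12-CLA, 1352 on c9,t11-CLA and 1166 on control, and Krt7, Krt19, Epcam, Cldn7 and Cftr stayed under the floor throughout.

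Among keratins of skin and hair, 4 passed 2-fold in a comparison, mostly as bounds. Krt81, a hair keratin, gave 3094 on t10,c12-CLA, 282 on c9,t11-CLA and 2446 on control. The t10,c12-CLA signal was at least 6.31-fold above that on c9,t11-CLA, and c9,t11-CLA was at least 4.99-fold below control. Its 3 other probe sets were under the floor on every array. Krt17, an epidermal keratin, gave 339 on t10,c12-CLA, 1424 on c9,t11-CLA and 772 on control, at least 2.90-fold lower on t10,c12-CLA than on c9,t11-CLA. Its other probe sets were also under the floor throughout. Krt72, a keratin of the hair follicle, gave 800 on t10,c12-CLA and 1138 on c9,t11-CLA, against 475 on control, at least 2.32-fold higher on c9,t11-CLA. Krt84 gave 1025 on t10,c12-CLA and 1292 on c9,t11-CLA, against 606 on control, 2.13-fold higher on c9,t11-CLA and 1.69-fold higher on t10,c12-CLA. The probe set standing for Krt84 carries the family suffix, and its other probe set was under the floor on every array. In the list of skin and hair epithelium, Krt5, Krt10, Krt14, Tchh and Dsc3 were under the floor on every array. Its summed signals over 11 genes were 8253 on t10,c12-CLA, 5523 on c9,t11-CLA and 7786 on control. Within these sums Krtap5-1 alone gave 3058 on t10,c12-CLA, 690 on c9,t11-CLA and 3849 on control. The lower sum on c9,t11-CLA than on control thus rested on that gene.

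Vimentin and desmin lay close to the floor. Vim gave 525 on t10,c12-CLA and 614 on c9,t11-CLA, against 205 on control, at least 1.07-fold and 1.25-fold higher. Des gave 352 on t10,c12-CLA, 768 on c9,t11-CLA and 699 on control, at least 1.43-fold lower on t10,c12-CLA than on control. The markers of stellate cells and fibroblasts, a list that holds both genes, had 10 of 12 genes above the floor on each array and Pdgfrb on none. Of 9 measured, 6 were above control on t10,c12-CLA and 3 on c9,t11-CLA, beside 49.1% and 52.2% of all measured genes. The part of these cells in the differences of the members was not tested.

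Genes with 2 measured probe sets allowed a check of direction within the gene. For t10,c12-CLA over control the brightest pair pointed the same way in 3 of 4 member genes, Myh9, Tuba1a and Tubb5, and in 59.5% of all 566 genes with such a pair. For c9,t11-CLA over control it did so in 2 of 4, Myh9 and Tubb5, and in 54.3% of 529 genes. For t10,c12-CLA over c9,t11-CLA only Tubb5 of 5 had agreeing probe sets, against 56.6% of 553 genes, while Actb, Myh9, Tuba1a and Tubb2a did not.

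Genes that act on the filaments were read from lists beside the members. Of 39 measured genes of actin assembly and crosslinking, 1 was 2-fold higher and 1 was 2-fold lower on t10,c12-CLA than on control, the scaffold Iqgap1 at 1.26 and the cofilin Cfl2 at -1.13, with a median of 0.20. These 2 of 39 stand beside 3.92% of all measured genes in either direction. On c9,t11-CLA 0 of 38 were 2-fold higher and 2 were 2-fold lower, the actin elongation factor Vasp at -1.29 and the severing protein gelsolin, Gsn, at -1.22, with a median of 0.09, beside 5.76% of all measured genes in either direction. Between the isomers Vasp stood at 1.57 and the actin monomer-binding Tmsb4x at 1.06, the 2 of 36 past 2-fold, beside 6.02% of all measured genes. Of 10 measured focal adhesion genes and targets of serum response factor 1 was 2-fold higher on t10,c12-CLA than on control, Ccn2 at 1.47, beside 2.05% of all measured genes. All 9 measured lamins and intermediate filament partners were above control on t10,c12-CLA, with a median of 0.51, while 49.1% of all measured genes were above 0. Of them 1, the keratin-linking periplakin Ppl, passed 2-fold at 1.01, beside 2.05% of all measured genes that were 2-fold higher. On the same array the median log2 difference from control was 0.38 for 11 macrophage and 0.50 for 9 stellate cell and fibroblast markers, and their part was not tested. Of 27 measured genes of tubulin folding and microtubule binding 1 was 2-fold higher on t10,c12-CLA than on control, the microtubule end-binding Mapre3 at 1.16, and the median was 0.03. That 1 of 27 stands beside 2.05% of all measured genes. On c9,t11-CLA 0 of 25 passed 2-fold in either direction, beside 5.76% of all measured genes.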

How the data were processed

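Liver RNA from 3 diets was hybridised to 1 Affymetrix mouse array each, from 8 µg of total RNA per the labels. The authors deposited MAS5 signal intensity per probe set, per the submitters' processing notes, which name no version. The 2%-trimmed means were equal, so the arrays had been scaled before deposit, and no further scaling was applied. Detection calls and probe-level intensities were not used here.

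Symbols came from the platform annotation, updated through the Entrez identifier in RefSeq (GRCm38.p6). Of 12488 probe sets, 10833 had 1 symbol, 396 several and 1193 none, and 66 were array controls. Only those with 1 symbol entered. A gene took its probe set of highest mean log2 signal. The floor was the pooled median, 490.3, and the size counted was 2-fold. A gene above it on 1 array was given as at least N-fold, against the floor. With 1 array per diet there was no test. Members, gene lists and alternatives were chosen with earlier results of these data known. Named in full were members past 2-fold and the 2 brightest genes of each filament group. From each list of other cytoskeletal genes up to 3 genes past 2-fold were named. From the lists of cell type markers only some of the genes past 2-fold were named. Other members named were added after their values were seen, as were the subdivision of tubulins and the promoter motifs. Alternatives were equal medians, quantile normalization, floors at the 25th and 75th percentile, a pseudocount of 50, the mean over probe sets, leaving out suffixed probe sets, and platform symbols. The script that counts genes past 2-fold was tested on simulated data. Python 3.11.15, numpy 2.4.6, pandas 2.3.3 and matplotlib 3.10.9 were used.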

Additional observations from a re-analysis of the deposited data

Results flagged for a closer look

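For 3 members above the floor on all 3 arrays, the CLA arrays lay on opposite sides of the control array and differed from each other by at least 2-fold. The log2 difference of t10,c12-CLA over c9,t11-CLA was 2.44 for Tubb2a, 1.57 for Tubb3 and 1.13 for Tpm4. With 1 array per diet these differences between the isomers were not tested. Krt81 and Krt17 also had the CLA arrays on opposite sides of control, but with a signal under the floor on 1 array, so only a bound could be given: at least 6.31-fold higher for Krt81 and at least 2.90-fold lower for Krt17 on t10,c12-CLA than on c9,t11-CLA. The second Tubb2a probe set did not share the pattern, at -0.21 between the isomers.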

How the results depend on the processing

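Myh9 passed 2-fold in both comparisons with control under all 8 alternatives, and Arpc4 on c9,t11-CLA likewise. Of 57 recomputed values for the 8 single differences past 2-fold, 55 stayed past it in the same direction, and Krt84 on c9,t11-CLA dropped below it with equal medians and quantile normalization. A further 7 had no value and are not among the 57, since the gene was no longer measured: Krt84, Tpm4 and Tubb3 with the higher floor, and Krt84, Tubb3 and both Tubb2a differences without suffixed probe sets. Many of the 57 could not differ from the first value. The floors change which genes are measured but not a log2 difference, and the platform symbols left each value unchanged. The mean over probe sets alters only genes with several measured sets. Leaving out suffixed sets alters only genes whose brightest set is suffixed. Arpc4 changed only with equal medians, quantile normalization and the pseudocount, to -1.41, -1.16 and -1.20. The floor moved the counts most. With the floor at the 25th percentile, 5 of 62 measured members were higher and 3 lower on t10,c12-CLA than on control. On c9,t11-CLA 5 of 61 were higher and 3 lower than on control, and between the isomers 5 of 60 were higher and 5 lower. With the 75th percentile, 1 of 22 was higher on c9,t11-CLA than on control and 1 of 20 between the isomers. Without suffixed probe sets, 1 was higher in each comparison, of 27, 27 and 30 measured: Myh9, Myh9 and Tpm4. The share of all genes past 2-fold was not counted under these alternatives, so nothing particular to the cytoskeleton is read from the changed counts. Equal medians gave 3 lower on c9,t11-CLA (quantile normalization 2) and 5 higher between the isomers, and moved the median of all genes for c9,t11-CLA over control to -0.16, against 0.02. The members' median for that comparison became -0.24 with equal medians and 0.035 with the lower floor. Between the isomers it became 0.21 with equal medians, -0.023 with the lower floor and 0.41 with the higher one. The cause was not tested, but the floors and the suffix change which genes are measured. No paired analysis was possible because each diet had 1 array.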

Other observations

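Probe sets that match several gene symbols were left out of the member counts, and 7 of them name a cytoskeleton gene. The set shared by the myosin light chains Myl12a and Myl12b gave 11439 on t10,c12-CLA, 8662 on c9,t11-CLA and 9644 on control, with a log2 difference of 0.40 between the isomers, in the same direction as the separate Myl12b set. A set shared by the alpha-tubulins Tuba1a, Tuba1b and Tuba1c gave 6844 on t10,c12-CLA and 4586 on c9,t11-CLA, against 9503 on control, log2 differences of -0.47 and -1.05. The brighter set for the Arp2/3 subunit Arpc1b gave 2258 on t10,c12-CLA and 1793 on c9,t11-CLA, against 1470 on control. It lay above control on both CLA arrays, whereas the subunit Arpc4 lay below it on both.

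Krtap5-1, a hair keratin-associated protein gene, gave 3058 on t10,c12-CLA, 690 on c9,t11-CLA and 3849 on control. Like the hair keratin Krt81 and Krt86 it was lowest on c9,t11-CLA, whereas Krt84 and Krt72 were highest there. Of 12 measured keratin genes, 10 were above control on c9,t11-CLA and 2 below, while 52.2% of all measured genes were above 0. With arrays at equal medians 8 of 13 were above, and after quantile normalization 11 of 13. The share of all genes above 0 was not counted under those settings. Of 9 measured stellate cell and fibroblast markers, 8 were higher on t10,c12-CLA than on c9,t11-CLA, the 3 past 2-fold being Pdgfra, Timp1 and Lum at 1.69, 1.54 and 1.27 on the log2 scale. Of all measured genes 45.7% were above 0 and 3.47% were 2-fold higher in that comparison. On c9,t11-CLA 3 of the 9 were above control, beside 52.2% of all measured genes. Among the 3 was Bgn, with 20434 on t10,c12-CLA, 11404 on c9,t11-CLA and 9042 on control. For c9,t11-CLA over control 2 of the 9 were 2-fold lower, Pdgfra at -1.16 and Timp1 at -1.14, and 0 were 2-fold higher. Of all measured genes 2.78% were 2-fold lower in that comparison.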
